A study of Mus musculus with 2 samples.

Results

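Promoter-flanking regions are stretches of accessible chromatin that lie near, but not at, a place where transcription begins. They were taken here from DNase-seq of hindbrain (cerebellum, pons and medulla) of healthy B6NCrl mice on postnatal day 0, males and females pooled, in 2 biological replicates that form 1 group. The labels give each replicate a tissue sample of its own but 1 shared donor entry, do not say how many animals were pooled, and name no second condition or control sample. DNase I cuts DNA where no nucleosome protects it, and a peak marks a place where such cuts pile up. Peaks of both replicates were merged wherever they overlapped by at least 1 bp, and a merged region was kept as shared when it held a peak of each replicate. A shared region was called flanking when its midpoint lay over 500 and at most 2000 bp from the nearest annotated transcript start. Of 136714 shared regions, 17679 (12.9%) were flanking, 27308 lay within 500 bp of a start and 91727 lay beyond 2000 bp. Among the flanking regions, 5183 were upstream of the nearest start of a protein-coding gene and 8278 were downstream of it. The other 4218 had no protein-coding start within 2000 bp and lay beside starts of other annotated genes, led by 1370 beside long intergenic non-coding RNAs, 775 beside processed pseudogenes and 541 beside antisense RNAs.

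At a mammalian gene the core promoter, where RNA polymerase II and the general transcription factors assemble, usually lies in a nucleosome-depleted gap right at the start. The flanks hold the first well-placed nucleosomes, further sites for sequence-specific factors, and promoters of neighbouring or unannotated transcripts. Many promoters sit in CpG islands, GC-rich stretches that keep their CpG dinucleotides and often reach past the start into the first exon and intron. CTCF, a zinc-finger protein that anchors chromatin loops and boundaries, binds both near promoters and far from them.

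The 3 highest-scoring flanking regions of each side whose window touches no annotated exon are shown first, so that these features can be seen in the letters. A score is the authors' value for a peak, a whole number from 1 to 150 within each list, and a region takes its highest peak score in each replicate. The sequences are 200 bp windows centred on the region, read 5′ to 3′ on the plus strand of mm10, with matches to the searched motifs in capitals (in the Stac3 window, the CTCF letters only). The Sp4 window is chr12:118302001-118302200, the Med13 window chr11:86358251-86358450 and the Zc3h4 window chr7:16400021-16400220, all upstream of the gene and intergenic. The Clec11a window is chr7:44305161-44305360, the Elf2 window chr3:51276131-51276330 and the Epc2 window chr2:49452011-49452210, all downstream of a start and in an intron. The Stac3 window, chr10:127509091-127509290, is downstream of a start of Stac3 but outside its annotated exons and introns, and is shown as the highest-scoring downstream region with the CTCF letters that touches no exon.
Sp4: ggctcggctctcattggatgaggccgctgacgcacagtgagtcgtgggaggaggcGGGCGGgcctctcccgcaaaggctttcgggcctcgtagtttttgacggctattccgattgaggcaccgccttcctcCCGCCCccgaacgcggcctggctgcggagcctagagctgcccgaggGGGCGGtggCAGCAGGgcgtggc
Med13: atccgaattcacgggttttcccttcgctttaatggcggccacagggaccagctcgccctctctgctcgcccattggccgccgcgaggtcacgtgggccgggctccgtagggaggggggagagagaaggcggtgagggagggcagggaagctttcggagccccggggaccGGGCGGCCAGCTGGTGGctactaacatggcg
Zc3h4: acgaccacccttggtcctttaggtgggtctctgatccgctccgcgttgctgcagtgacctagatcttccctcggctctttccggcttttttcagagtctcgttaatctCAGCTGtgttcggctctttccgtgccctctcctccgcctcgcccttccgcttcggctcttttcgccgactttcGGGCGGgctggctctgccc
Clec11a: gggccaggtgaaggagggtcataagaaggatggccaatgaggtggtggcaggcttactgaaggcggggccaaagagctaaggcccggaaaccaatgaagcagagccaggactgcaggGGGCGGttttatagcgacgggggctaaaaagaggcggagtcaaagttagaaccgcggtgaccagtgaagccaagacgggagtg
Elf2: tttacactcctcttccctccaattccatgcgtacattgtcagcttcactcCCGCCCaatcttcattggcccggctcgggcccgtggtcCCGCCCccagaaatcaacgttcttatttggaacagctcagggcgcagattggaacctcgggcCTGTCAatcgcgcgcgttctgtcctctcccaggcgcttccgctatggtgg
Epc2: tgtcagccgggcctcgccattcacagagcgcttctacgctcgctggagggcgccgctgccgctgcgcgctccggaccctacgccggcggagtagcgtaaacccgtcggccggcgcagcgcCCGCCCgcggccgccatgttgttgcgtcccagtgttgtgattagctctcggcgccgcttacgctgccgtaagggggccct
Stac3: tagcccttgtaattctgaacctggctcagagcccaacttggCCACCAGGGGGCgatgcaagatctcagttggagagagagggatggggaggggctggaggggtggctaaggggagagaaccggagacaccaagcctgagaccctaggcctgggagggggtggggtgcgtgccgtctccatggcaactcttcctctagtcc

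The region upstream of Sp4, a zinc-finger factor of the Sp family that binds GC-rich DNA, lay 661 bp from the start and scored 147 in replicate 1 and 140 in replicate 2. Its window is 69.0% G and C, holds 20 CpG dinucleotides, and has the GC box letters GGGCGG at 3 places and the ZIC letters CAGCAGG at 1. The region upstream of Med13, a subunit of the Mediator kinase module, lay 749 bp away and scored 148 and 138. In its window a GC box overlaps the CTCF letters, read on the minus strand, and the E-box letters CAGCTG lie inside that CTCF match. The region upstream of Zc3h4, a zinc-finger protein that limits non-coding transcription, lay 789 bp away and scored 148 and 138, with 1 GC box and 1 CAGCTG E-box. All 3 lay beside a start that itself had a shared region within 500 bp, here called an open start, and each shared a hotspot with that start in both replicates. A hotspot is the wider enriched domain that the authors called in each library.

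Downstream, the Clec11a region lay 1641 bp past a start of this gene for a secreted growth factor and scored 142 and 137, but that start was not open and the region shared no hotspot with it. The Elf2 region lay 1137 bp inside this gene for an ETS-family transcription factor and scored 146 and 130. Its nearest start of any kind, 528 bp away, belongs to an unconfirmed transcript. The Epc2 region lay 625 bp inside a gene of the enhancer of polycomb family and scored 147 and 129. Its window is the most CpG-dense of those shown, with 30 CpG dinucleotides and 71.0% G and C. The Stac3 window, with scores of 127 and 121, differs from the other 6 shown in holding 4 CpG dinucleotides, an observed to expected CpG ratio of 0.222 and no GC box. It holds the CTCF letters at 1 place and the RFX letters GTTGCCATG, on the minus strand and in lower case, at 1.

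The flanking belt was denser in accessible regions than the genome as a whole. It covers 206.6 Mb, which is 7.81% of the sequenced genome, and held 85.6 shared regions per Mb against 51.6 per Mb genome-wide. Within it, the number of regions differed between the sides of the start. Upstream positions held 87.4 regions per Mb and downstream positions 133.7 per Mb, counted over 59.3 and 61.9 Mb of sequence that meets the same distance limits. The downstream density was 1.53 times the upstream density (95% interval 1.48 to 1.59). From each replicate's own peaks the ratio was 1.51 (1.47 to 1.54) in replicate 1 and 1.59 (1.55 to 1.64) in replicate 2. Intervals here are exact binomial ones and cover counting error only. Regions of 1 tissue are not replicates, there is 1 group, and no test was made. The 2 replicates give the spread between libraries.

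Each band of distance named here includes its upper limit and not its lower one. Density was lower with distance on both sides, and the sides approached each other. In the first 100 bp of the belt, 500 to 600 bp from the start, the density was 141.9 per Mb upstream and 234.7 per Mb downstream. In the last 100 bp, 1900 to 2000 bp away, it was 63.5 and 77.8 per Mb. Downstream density was 1.65 times the upstream one at 500 to 1000 bp (1.57 to 1.73), 1.52 times at 1000 to 1500 bp (1.42 to 1.62) and 1.31 times at 1500 to 2000 bp (1.21 to 1.41). Replicate 2 followed the same order, at 1.69, 1.62 and 1.34. In replicate 1 the middle band was the most unequal, at 1.52, 1.55 and 1.44. The excess on the downstream side was therefore present in every band of both libraries, while its order with distance was not the same in each.

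**Figure D1:**
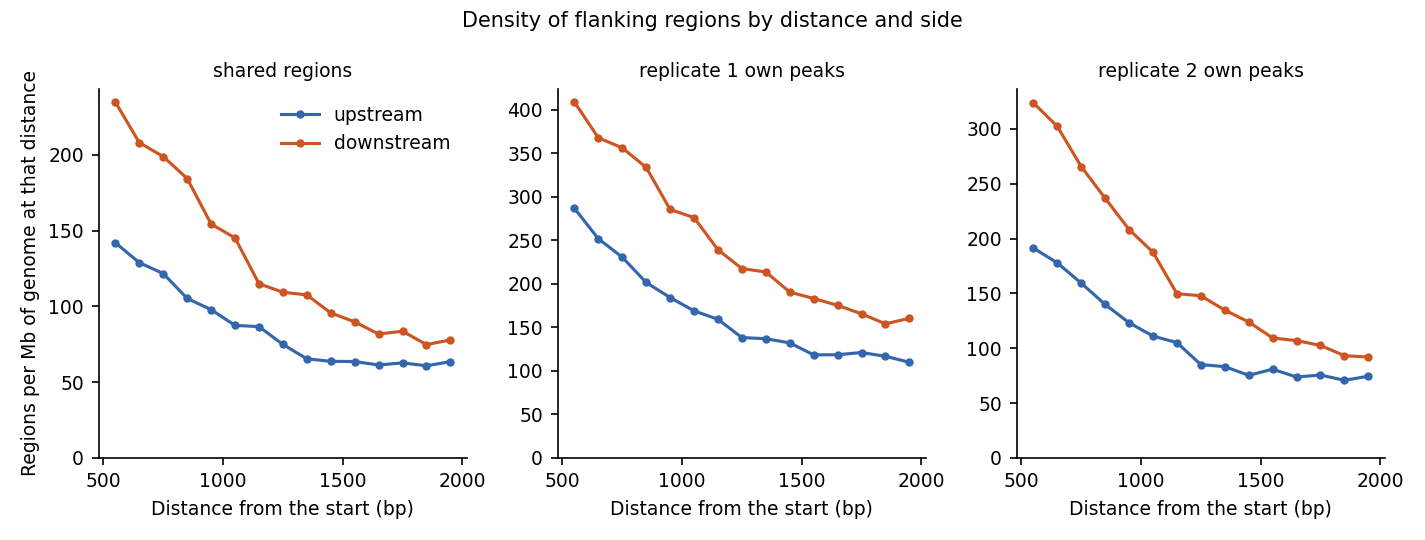
Density of accessible regions (regions per Mb of genome at that distance and side) against the distance from the nearest protein-coding start in bins of 100 bp, for shared regions and for each replicate's own peaks. Points are single bins. Downstream points lie above upstream points in every bin of all 3 panels, and for shared regions go from 234.7 to 77.8 per Mb downstream and from 141.9 to 63.5 per Mb upstream.

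Whether the start itself was accessible went with the difference between the sides. Beside open starts the density was 163.4 per Mb upstream and 298.4 per Mb downstream, a ratio of 1.83 (1.75 to 1.91). Beside starts that were not open it was 48.8 and 52.5 per Mb, a ratio of 1.08 (1.01 to 1.14), and both values lie close to the 51.6 per Mb of the whole genome. The widest gap was at open starts that are the 5′ end of their gene, with 159.1 per Mb upstream and 387.8 per Mb downstream, a ratio of 2.44 (2.29 to 2.60). Each position was assigned to its nearest protein-coding start, so the 2 sides of these 5′ ends need not come from the same genes. Members there numbered 2471 upstream and 1546 downstream, against 791 and 4559 at other open starts. At other open starts, inside or further along the gene, the ratio was 1.55 (1.44 to 1.67). At other starts that were not open it was 1.02 (0.95 to 1.09), an interval that includes equality. Open starts were identified from the same peak lists as the members, so these values describe how accessible regions cluster.

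**Figure D2:**
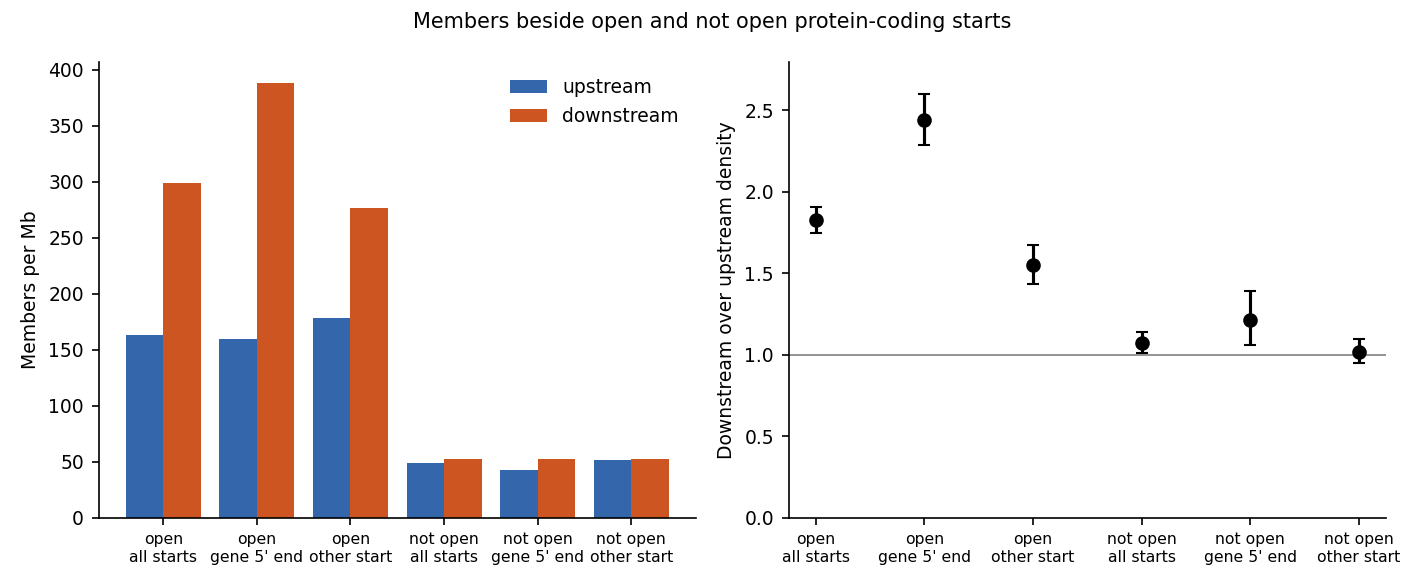
Left, members per Mb upstream and downstream of protein-coding starts that were open (a shared region within 500 bp) or not open, for all starts, gene 5′ ends and other starts. Right, the downstream density divided by the upstream density with exact 95% intervals and a line at 1. The ratio is 2.44 at open 5′ ends and 1.02 at other starts that were not open. The 2 sides of the 5′ ends need not come from the same genes.

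Most flanking regions lay beside an open promoter. This held for 62.9% of upstream members (61.6 to 64.3) and 73.8% of downstream members (72.8 to 74.7), while 52.7% of all 93459 annotated starts of protein-coding genes were open. The share was lower with distance, from 71.2% at 500 to 1000 bp to 49.9% at 1500 to 2000 bp upstream, and from 81.0% to 59.1% downstream. A share of starts is not a share of sequence, so 52.7% does not give the share that sequence alone would yield. Per Mb of sequence over the whole belt, upstream density was 163.4 beside open starts and 48.8 beside starts that were not open. Measured to the next shared region on the side of the start, the median gap was 1040 bp upstream and 830 bp downstream.

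Some members were joined to the promoter by a single enriched domain, and here the replicates differed. In replicate 1, 22.4% of upstream members (21.3 to 23.6) and 33.3% of downstream members (32.3 to 34.3) lay in the hotspot that also covered their start. In replicate 2 the shares were 20.95% upstream and 23.97% downstream. Among members beside open starts only, replicate 1 gave 34.4% upstream and 43.9% downstream, and replicate 2 gave 32.6% and 31.8%, so the order of the sides at open starts was not the same in both libraries. Beyond 1500 bp few members were joined in this way, 3.86% upstream and 7.33% downstream in replicate 1 and 3.95% and 4.53% in replicate 2. When the members joined in either replicate were left out of the counts, downstream density was 1.31 times the upstream density. The sequence under those hotspots was not taken out, so this ratio is approximate.

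The 2 sides of the belt fell in different parts of genes. Of downstream members, 76.0% lay in an intron of a protein-coding gene and 10.9% in a coding exon. Placed on the transcript whose start was nearest, 71.5% of downstream members (70.5 to 72.4) were in intron 1 and 9.30% in exon 1. Exon 1 members had a median CpG ratio of 0.663 and 61.0% G and C, against 0.383 and 52.5% in intron 1, and their median scores were 70.5 and 47 against 62 and 42 in replicates 1 and 2. Of upstream members, 44.4% were intergenic and 40.3% lay in an intron of a protein-coding gene. Many upstream members lay before an internal start, since 42.1% were inside the gene whose start they were upstream of. The gene's own 5′ end was the nearest start for 57.9% of upstream members and 23.1% of downstream members. Of upstream members, 56 (1.08%) were also upstream of an opposite-strand protein-coding start within 2000 bp. Members lie over 500 bp from every annotated start, so regions between closely spaced divergent starts are left out by the rule. The count therefore does not measure how frequent divergent pairs are.

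Although fewer, upstream regions held more of the highest scores. The median score was 67 in replicate 1 and 46 in replicate 2 upstream, and 64 and 43 downstream, and the middle ranges overlapped widely (quartiles of 47 and 91 against 47 and 84 in replicate 1). The medians thus differed by 3 score units in each replicate, and the sides were most unlike at the top. A mean percentile of score of at least 90 over all shared regions was reached by 407 upstream members, 7.85% (7.14 to 8.62), and by 320 downstream members, 3.87% (3.46 to 4.30). In shared regions within 500 bp of a start it was 38.4%, and beyond 2000 bp it was 2.01%. When the 5′ end of each gene was the only start used, the difference in median score was 0 in replicate 1 and −2 in replicate 2. Other transcript starts were then ignored, so regions at them could count as members.

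High scores were more frequent among upstream members where CpG content was high and where the start was open. A member was called CpG-rich when its 200 bp window had over 50% G and C and an observed to expected CpG ratio above 0.6. Of 734 CpG-rich upstream members, 30.7% reached the 90th percentile, against 9.85% of 1869 CpG-rich downstream members. Of the remaining members, 4.09% upstream and 2.12% downstream reached it. Beside open starts the shares were 10.1% upstream and 3.82% downstream, and beside starts that were not open they were 4.008% and 4.004%. The intervals of that last pair, 3.18 to 4.98 and 3.22 to 4.92, overlap almost entirely. Where the nearest start was the gene's 5′ end, the shares were 10.2% upstream and 5.34% downstream. With another start nearest, they were 4.58% (3.74 to 5.55) and 3.42% (2.99 to 3.9), and these intervals overlap. The sides hold unlike mixes of starts, since the 5′ end was nearest for 57.9% of upstream and 23.1% of downstream members. Spearman's correlation of the 2 replicates' scores was 0.912 over the 5183 upstream and 0.880 over the 8278 downstream members, a description over regions of the same libraries.

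**Figure D3:**
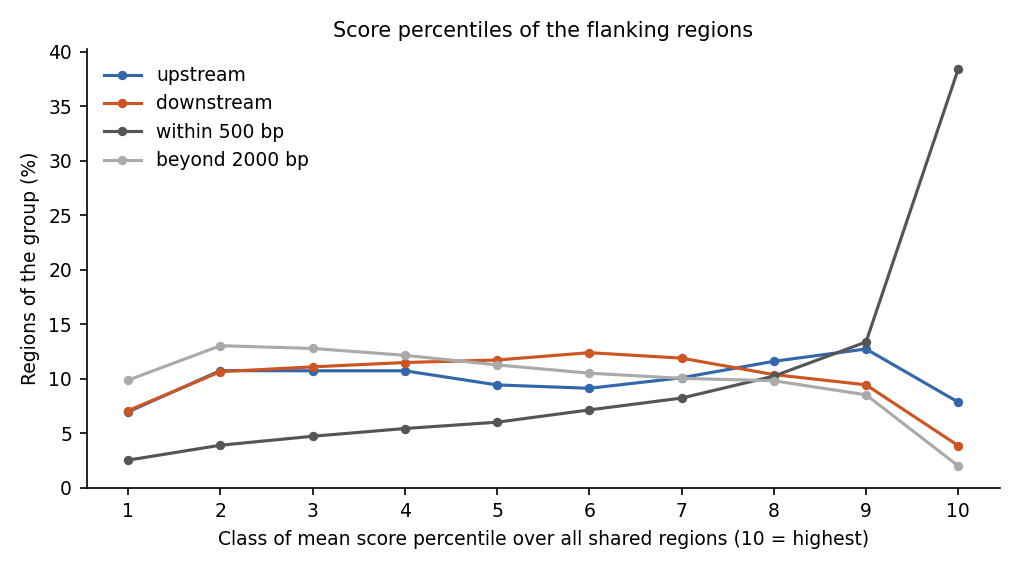
Share of the regions of each group (vertical, %) in each of 10 classes of the mean score percentile over all shared regions (horizontal, 10 is highest). Upstream and downstream members run close together in the lowest classes. Downstream members are more frequent in the middle ones, at 12.4% against 9.13% upstream for percentiles of 50 to 60. Upstream members are more frequent in the upper ones, at 7.85% against 3.87% in the highest, where regions within 500 bp of a start reach 38.4%.

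The strongest upstream members included, besides those shown, regions 1306 bp from a start of Mtfp1, a mitochondrial fission gene (147 and 138), 1036 bp from Foxo3, a forkhead factor (144 and 138), and 1430 bp from Cpeb4, which controls translation through the poly(A) tail (145 and 135). The regions at Rap2a, a small GTPase (143 and 139, 783 bp), Fem1a (143 and 139, 759 bp), Alcam, a cell adhesion molecule (145 and 134, 557 bp), and Mex3c complete the first 10. Of these 10, 9 were intergenic and 9 lay beside an open start. With exons allowed, the downstream set was led by B430305J03Rik (147 and 133, 1430 bp) and Fosb, an AP-1 subunit (145 and 134, 919 bp). It went on with Mnt, a MYC antagonist (143 and 133, 1361 bp), Strn, the scaffold striatin (144 and 131, 505 bp), and Zfp503 (143 and 130, 1600 bp). Dtx1, a Notch pathway ubiquitin ligase (143 and 130, 1728 bp), and Sertad3 (145 and 127, 953 bp) completed it. Of the 10 downstream regions, 6 lay beside an open start, all 10 held the GC box letters, and 3 lay in 5′ untranslated exons. Over all downstream members those shares were 73.8%, 16.7% and 2.04%. The upstream regions also held the GC box letters, except those at Rap2a and Fem1a. These regions were picked by score, and downstream members with the letters had a median score of 80 in replicate 1, against 61 without them.

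The base composition of the belt lay between that of promoters and that of distal regions. Over the whole belt both sides were nearer to distal regions, the downstream side less so. The median CpG ratio was 0.312 upstream and 0.395 downstream, against 0.714 within 500 bp of a start and 0.235 beyond 2000 bp. CpG-rich windows made up 14.2% of upstream members (13.2 to 15.1) and 22.6% of downstream members (21.7 to 23.5), against 59.1% and 3.46% in those 2 comparison groups. At 500 to 600 bp the shares were 23.6% upstream and 39.1% downstream, and at 1900 to 2000 bp they were 3.54% and 9.93%. CpG-rich members scored higher on both sides. Their medians were 98 and 73 upstream and 80 and 53 downstream in replicates 1 and 2, against 62 and 42, and 59 and 40, for the remaining members.

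CTCF letters showed the opposite order of the sides. The letters searched were CCANNAGNNGGC on both strands of the 200 bp window, a short core of the CTCF consensus. They were found in 665 upstream members, 12.8% (11.9 to 13.8), and in 604 downstream members, 7.30%. Among all shared regions the share was 9.31%, within 500 bp of a start 4.06% and beyond 2000 bp 10.8%. Upstream members therefore held these letters more often than distal regions did, and downstream members less often. Among windows of 50 to 60% G and C the shares were 11.5% and 7.22%. The share was higher farther from the start, going from 10.3% through 15.0% to 15.7% over the 3 bands of 500 bp upstream and from 5.15% through 8.40% to 11.6% downstream. Of upstream matches, 53.0% were on the strand of the gene, and of downstream matches 46.6%, with intervals of 49.1 to 56.8 and 42.5 to 50.7 that include an even split. Members with the letters had median scores of 76 and 57 upstream and 76 and 54 downstream, above the 65 and 44, and 63 and 43, of members without them. A match in letters is not evidence of a bound factor.

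**Figure D4:**
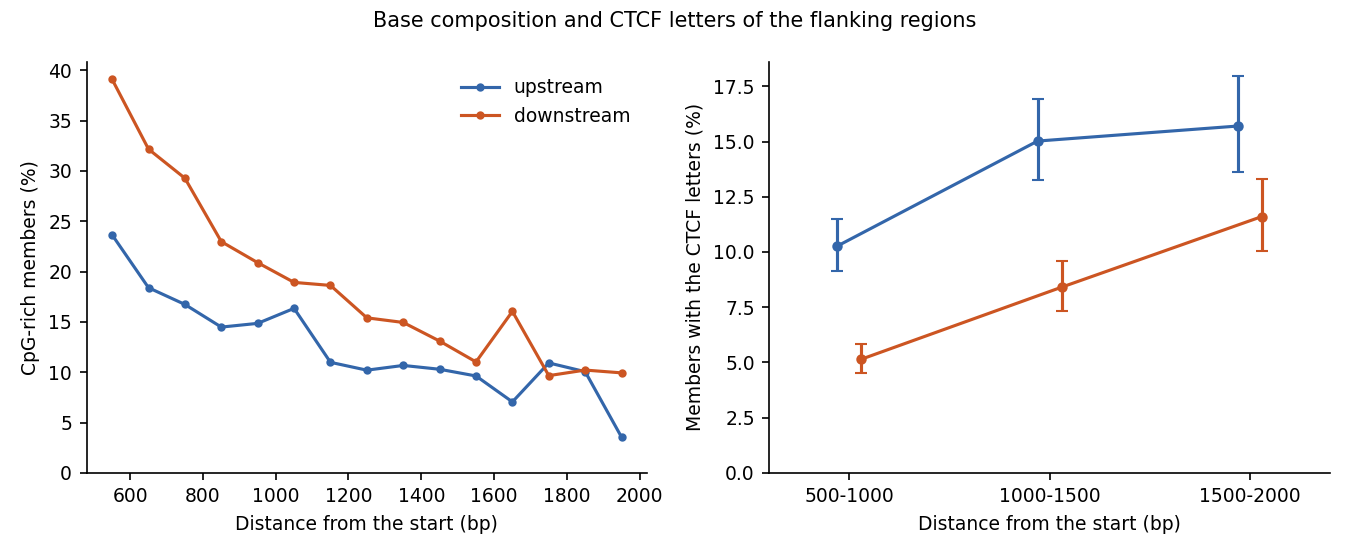
Left, share of members that are CpG-rich (%) in bins of 100 bp against the distance from the start (bp). Right, share of members with the CTCF letters (%) in 3 bands of distance, with exact 95% intervals. CpG-rich members are more frequent downstream near the start (39.1% against 23.6% at 500 to 600 bp), and CTCF letters are more frequent upstream in each band.

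Among the other motifs searched, the GC box letters GGGCGG, bound by Sp and KLF factors, were in 13.4% of upstream and 16.7% of downstream members, against 45.5% within 500 bp of a start, 5.76% beyond 2000 bp and 14.7% of all shared regions. The AP-1 letters TGANTCA were in 5.90% and 4.33%, against 7.21% beyond 2000 bp. The ETS letters CCGGAAG, frequent at core promoters (9.46% within 500 bp), were in 2.22% of upstream and 2.07% of downstream members. Neural E-boxes of the letters CAGATG were in 18.97% and 16.88%, and CAGCTG in 16.3% and 16.8%, all below the 24.8% and 21.1% found beyond 2000 bp. The homeodomain letters TAATTA were in 3.69% and 3.11%, against 7.36% beyond 2000 bp. The MEIS letters TGACAG were in 14.9% and 15.0%. In letters, the belt thus held fewer of the neural motifs listed than distal regions, and fewer core promoter motifs than regions at the start.

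Flanking peaks were found again in the other library about as often on either side. Of replicate 1 peaks in the belt, 51.7% upstream (50.7 to 52.7) and 52.6% downstream (51.9 to 53.4) overlapped a peak of replicate 2, between the 69.9% of peaks within 500 bp of a start and the 47.9% of those beyond 2000 bp. Of replicate 2 peaks, 77.7% upstream and 75.2% downstream overlapped a peak of replicate 1, below both the 86.7% within 500 bp and the 82.4% beyond 2000 bp. The order of flanking and distal peaks therefore differed between the libraries. Replicate 1 has 270757 peaks and replicate 2 has 171790, and read depth is unknown because the tables hold no read counts. Recurrence went with score. When replicate 2 scores were split into 4 parts, peaks of the lowest part recurred at 48.7% upstream and 48.8% downstream, and those of the highest at 98.5% and 97.0%.

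Counted by gene, 3957 of 21938 protein-coding genes (18%) had an upstream flanking region, 5693 (26.0%) a downstream one, 7841 (35.7%) at least 1 on either side and 1809 (8.25%) both. Among 14384 genes with an open start, 48.1% had a flanking region. Genes with more annotated starts had one more often, from 20.9% of genes with 1 start through 43.7% of those with 4 to 6 starts to 61.4% of those with 11 or more. Among the genes with the most members were Abr, which encodes a regulator of small GTPases, with 3 upstream and 9 downstream, Frmd4b and Myo10 (2 and 8), Nrxn2 (4 and 6), Camta1 (3 and 6), Dtx1 (4 and 5), Fgfr2 (6 and 3), Foxp1 (5 and 4) and Meis1 (4 and 5). At Abr the members ranged from a region 1894 bp downstream of a start, with scores of 37 and 28, to one 1247 bp upstream and intergenic, with scores of 122 and 78. At Meis1, a TALE homeodomain factor of hindbrain progenitors, the highest member lay 1536 bp upstream and scored 141 and 125, while the lowest by mean percentile lay 742 bp upstream and scored 53 and 34.

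Lists of genes that mark cell types were read against those shares. Some genes stand in more than 1 list, so the lists are not independent. The meningeal and fibroblast list shares Pdgfra with the oligodendrocyte lineage list and Zic1 with the hindbrain identity list. Cspg4, Meis1 and Pax6 also stand in more than 1 list. The lists were chosen with earlier results of these data known, and a peak in bulk tissue does not say which cells it came from, nor separate fewer cells from weaker signal per cell. Neural lists stood highest. Of 20 pan-neuronal genes, 15 had an upstream and 18 a downstream region, and of 26 genes of the granule cell lineage, 19 and 20. Radial glia and astrocyte genes followed at 12 and 12 of 20, hindbrain identity genes at 10 and 10 of 20, and Purkinje cell genes at 6 and 9 of 16. Oligodendrocyte lineage genes had 8 upstream and 6 downstream of 19. Microglia genes had 3 and 2 of 18, endothelial and mural genes 3 and 5 of 18, and lymphoid genes 2 and 1 of 16. Liver genes had 3 and 3 of 20, skeletal muscle genes 4 and 4 of 17, and erythroid genes 1 and 4 of 14. Meningeal and fibroblast genes had 4 and 3 of 15. The shares of these lists lay between 6.25% and 28.6%, beside 18% upstream and 26.0% downstream over all genes, and not all were lower. Skeletal muscle (23.5%) and meningeal and fibroblast genes (26.7%) stood above the upstream share. Endothelial and mural (27.8%) and erythroid genes (28.6%) stood above the downstream one. On either side, 8 of 17 skeletal muscle genes (47.1%) had a region, against 35.7% of all genes. Forebrain identity genes had 5 upstream (27.8%) and 2 downstream (11.1%) of 18, above the upstream share over all genes and below the downstream one. Of them, 9 of 18 had an open start, against 16 of 20 for hindbrain identity.

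Several of the lower counts depended on the library. Forebrain identity genes had a downstream region at 9 of 18 (50%) in replicate 1's own peaks and at 7 of 18 (38.9%) in replicate 2's. Of all genes, 39.3% and 30.7% had one in those lists. Downstream, they thus stood above the share over all genes there and below it in shared regions. Upstream, they stood at 27.8% in replicate 1 and 38.9% in replicate 2, against 29.0% and 21.3% of all genes. Meningeal and fibroblast genes had a downstream region at 10 of 15 (66.7%) in replicate 1 and 4 of 15 (26.7%) in replicate 2. Lymphoid genes had one at 4 of 16 and 2 of 16, and liver genes at 6 of 20 and 3 of 20. These lists are not shown to lack flanking regions.

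Lists with an open start at all or nearly all of their genes differed in their flanking regions. All 21 cell cycle, 18 housekeeping, 20 pan-neuronal and 20 radial glia and astrocyte genes had an open start. Of 26 granule lineage genes, 25 had one. Flanking regions on either side were found at 9 of 21 (42.9%) cell cycle and 8 of 18 (44.4%) housekeeping genes. Those shares were near the 35.7% of all genes and the 48.1% of genes with an open start. The shares were higher at 18 of 20 (90%) pan-neuronal, 23 of 26 (88.5%) granule lineage and 15 of 20 (75%) radial glia and astrocyte genes. The median number of annotated starts was 5 for cell cycle, 6 for housekeeping, 5 for pan-neuronal and 3.5 for granule lineage genes, against 3 over all genes. A further count used the 5′ end of each gene as the only start. It ignored other transcript starts, so a region at an alternative start could count as a member. It therefore does not remove the influence of the number of starts. In that count, 15 of 20 pan-neuronal and 21 of 26 granule lineage genes had a downstream region. For cell cycle genes it was 5 of 21, for housekeeping genes 5 of 18 and for all genes 26.4%. Counted from each replicate's own peaks, 19 and 20 of 20 pan-neuronal genes had a downstream region in replicates 1 and 2, 6 and 7 of 18 housekeeping genes, and 10 and 5 of 21 cell cycle genes, the last against 4 in shared regions. Upstream, 9 and 6 of 18 housekeeping genes and 9 and 6 of 21 cell cycle genes had one, against 29.0% and 21.3% of all genes. Hox genes, which set position along the body axis, had few annotated starts, a median of 2 in groups 1 to 8 and 1 in groups 9 to 13. Of 23 genes of groups 1 to 8, the more anterior groups, 14 had an open start and 5 (21.7%) a flanking region in shared regions, beside 35.7% of all genes and 20.9% of genes with 1 start. In replicate 1's own peaks 9 of these 23 (39.1%) had an upstream region, and in replicate 2's 4 (17.4%), against 3 in shared regions. Of 16 genes of groups 9 to 13, 2 had an open start and 2 a flanking region.

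**Figure D5:**
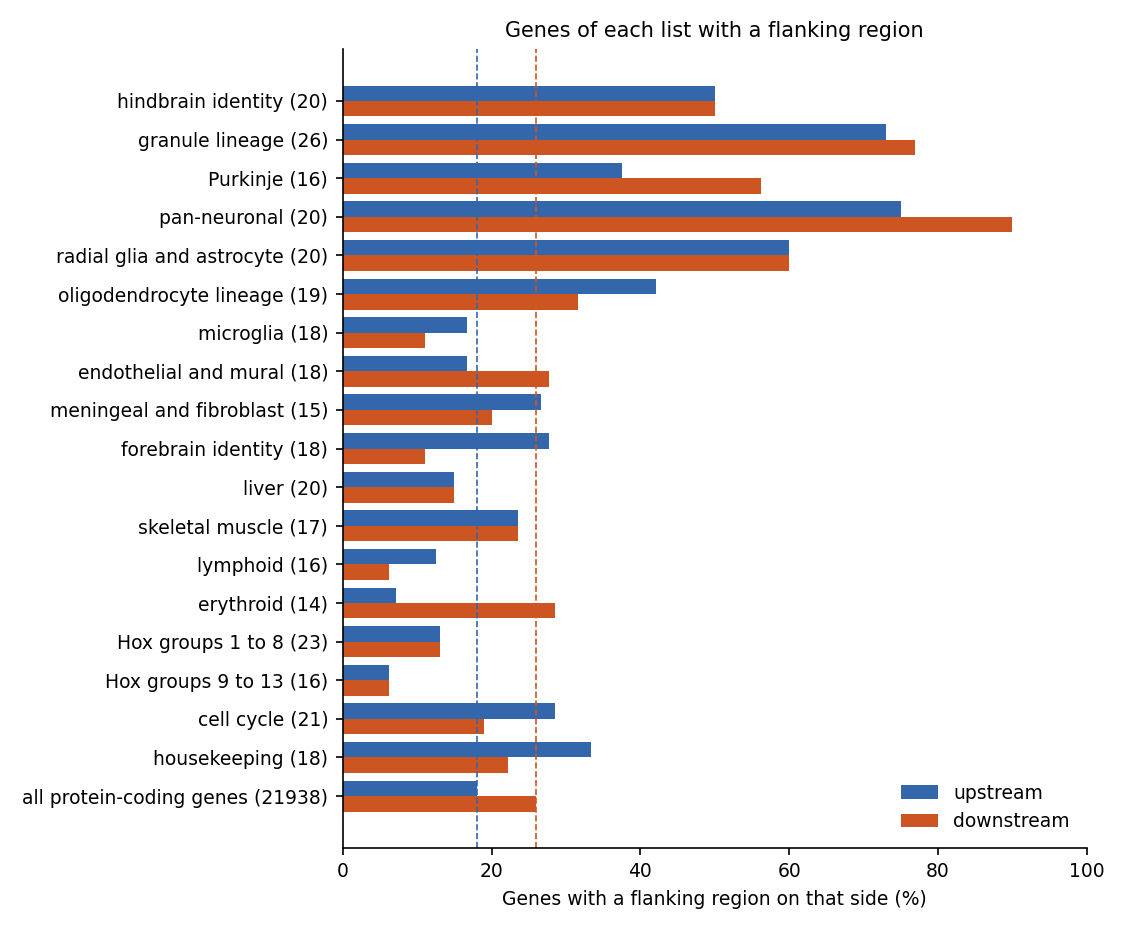
Share of the genes of each list (number matched in brackets) with an upstream or a downstream flanking region, with dashed lines at the shares over all protein-coding genes, 18% and 26.0%. Pan-neuronal genes reach 75% and 90%, granule lineage genes 73.1% and 76.9%, and Hox groups 9 to 13 stand at 6.25% on both sides.

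Single genes show how these regions were laid out. Zic2, a zinc-finger factor of granule cell progenitors, had 6 downstream and 2 upstream members, and its highest lay 1174 bp upstream with scores of 127 and 106. Of its 6 downstream members, 4 lay in coding exons. Stmn2, a neuronal microtubule regulator, had 3 of its 4 downstream members at 695, 1425 and 1705 bp in intronic sequence past an open start, with scores of 87 and 61, 83 and 56, and 81 and 53. Its highest, 1685 bp past a start that was not open, scored 115 and 98. Pdgfra, a marker of oligodendrocyte precursors, had 4 members, all upstream, the highest 961 bp away with scores of 90 and 63. Myod1, a skeletal muscle factor, had 3 downstream members in its own exons beside a start that was not open, at 697, 1327 and 1957 bp, with CpG ratios of 0.888, 0.816 and 0.635. Their scores were 92 and 64, 53 and 27, and 58 and 35.

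The limits of the belt follow distance alone, and nothing in the values changes sharply at them. Just outside the inner limit, at 400 to 500 bp, 2536 shared regions had median scores of 70 and 48, and just inside, at 500 to 600 bp, 2132 had 67 and 46. At the outer limit, 735 regions at 1900 to 2000 bp had 65 and 44, and 622 at 2000 to 2100 bp had 66 and 44. Median CpG ratios were 0.511 and 0.468 across the inner limit and 0.248 and 0.239 across the outer one.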

How the data were processed

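Per the labels, peaks and hotspots are given for each library separately on mm10; for the aligner, the caller and its threshold, nothing is given in the sources used here. The deposited peak tables hold a score per peak, a whole number from 1 to 150 whose meaning is not stated, and nearly all peaks are 150 bp wide. The deposited hotspot tables hold a −log10 q-value per hotspot with a cap of 100, reached by 34.8% and 34.0% of hotspots of replicates 1 and 2. These −log10 values were not used beyond describing them, and scores were used only to rank or filter within a list.

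Peaks on unplaced scaffolds and the mitochondrial chromosome were left out (393 and 212). Starts, genes and exons came from the GENCODE M21 annotation and sequence from RefSeq's GRCm38.p6 genome, both of the files' build. Distances ran from the midpoint of the merged region. Density is members divided by the genome positions, without N, that meet the same distance and side. Intervals are exact (Clopper-Pearson, 95%). Motifs were exact letters on both strands, N being any base. Members, gene lists and the rules for naming were chosen with earlier results of these data known: the 10 highest-ranked members of each side, the 10 genes with the most members and up to 4 genes of each list could be named, of which those that show a pattern are given, and a few that the rules would name are not reported here. Of the genes in the lists, Hbb-b1 did not match the annotation. The density calculation was tested on simulated positions. Alternatives were each replicate's own peaks, distance from the nearest base, peaks at or above the median score, 50% reciprocal overlap, gene 5′ ends only, autosomes only, isolated starts, starts nearest of any kind and distances over 1000 bp. Python 3.11.15, numpy 2.4.6, pandas 2.3.3, scipy 1.17.1 and matplotlib 3.10.9 were used.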

Additional observations from a re-analysis of the deposited data

How the results depend on the processing

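Of 91 recomputed values of 21 results, 40 stayed within the limit set for the reported value and 51 moved past it. The limit was not of the same kind for every result, so these totals mix different rules. The cause of the moves was not tested. Most of the values were counts and shares, which cannot change sign. Upstream density stayed below downstream density in every alternative, and no difference between medians took the opposite sign. Read depth, which is unknown here, limits the regions that each list can hold.

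From 1 replicate's own peaks there were 22661 to 34019 flanking regions, 4668 to 6370 genes with an upstream and 6734 to 8620 with a downstream region. In the same lists the upstream over downstream density was 0.628 to 0.665 (reported 0.653). The CpG ratio differed (upstream minus downstream) by −0.0850 to −0.0637. Members beside an open promoter made up 67.0% to 69.3% upstream and 78.1% to 78.7% downstream. Open starts were called anew from each list, as also with stronger peaks and with reciprocal overlap. Those open promoter shares are therefore not on the same footing as the reported 62.9% and 73.8%. No paired analysis was possible because there is 1 group.

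The density ratio was 0.696 with 50% reciprocal overlap, 0.422 with gene 5′ ends only, 0.694 at 1000 to 2000 bp and, in an alternative added after the data were seen, 0.766 without members in the promoter's hotspot. For that last value the sequence under the hotspots was kept. The setting with gene 5′ ends only ignored other transcript starts, so regions at those starts could count as members there. With the stronger peaks only, there were 10643 flanking regions.

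With gene 5′ ends only, the shares beside an open promoter were 82.9% upstream and 86.1% downstream, the CpG difference was −0.164, the score difference in replicate 1 was 0.0, and the shares in the promoter's hotspot were 32.4% and 48.5% (replicate 1, upstream and downstream) and 31.3% and 35.5% (replicate 2). Recurrence was then 57.1% downstream in replicate 1, and 75.3% upstream and 74.1% downstream in replicate 2. With distance from the nearest base, the open promoter shares were 60.6% and 71.7%, the CpG difference −0.0674, and the hotspot shares 18.5% and 28.3% (replicate 1) and 17.3% and 20.2% (replicate 2).

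With the stronger peaks, the downstream open promoter share was 70.8%, the score differences (downstream minus upstream) −6.0 and −7.0, the hotspot shares 31.0% and 42.9% (replicate 1) and 28.3% and 32.2% (replicate 2), and recurrence 61.1% and 57.8% (replicate 1) and 90.5% and 86.7% (replicate 2). With 50% reciprocal overlap, the open promoter shares were 59.4% and 69.1%, and recurrence 47.1% and 45.2% (replicate 1) and 70.3% and 63.8% (replicate 2). Under stronger peaks and under reciprocal overlap, upstream peaks of replicate 1 recurred more often than downstream ones, opposite to the reported order. In windows of 50 to 60% G and C, the CTCF letters were in 11.5% of upstream members and the GC box in 11.3% upstream and 12.3% downstream.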

Other observations

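The 4218 flanking regions with no protein-coding start within 2000 bp were nearer to distal regions in base composition than the sided members were. Their median scores were 62 in replicate 1 and 42 in replicate 2, their median CpG ratio was 0.265, and 7.09% were CpG-rich (0.235 and 3.46% beyond 2000 bp). The homeodomain letters TAATTA were in 6.21% and the E-box letters CAGATG in 22.4% of them, above the 3.69% and 18.97% of upstream members, and 10.8% held the CTCF letters. Of these regions, 37.1% were intergenic, 23.1% lay in an intron of a protein-coding gene and 23.2% in an intron of another gene, against 47.05%, 42.5% and 5.87% beyond 2000 bp, so in this respect upstream members, at 44.4%, 40.3% and 4.48%, were nearer.

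Promoter CpG content, in 5 classes of all genes, went with the share of genes with an open start (12.9% in the lowest class, 97.8% in the highest) far more than with flanking regions at open genes. Among genes with an open start, an upstream region was found at 22.0% in the lowest class and 26.5% in the highest, and a downstream region at 32.2% and 40.0%.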
